A study of Rattus norvegicus with 53 samples.

Results

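Aminoacyl-tRNA synthetases join each amino acid to its transfer RNA, the step that prepares amino acids for the ribosome. Most amino acids are served by separate nuclear genes for the cytosol and for mitochondria, while Gars1 and Kars1 each supply both compartments. In the cytosol a group of the enzymes is held in a multisynthetase complex by the scaffold proteins Aimp1, Aimp2 and Eef1e1. Many of the cytosolic enzymes are known targets of ATF4, the transcription factor that cells make when charged transfer RNA runs short and also under growth signals that act through mTORC1.

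The genes described here are 38 in number: 19 cytosolic enzymes, 16 mitochondrial enzymes and 3 scaffold proteins. A gene was represented by the brightest probe set that carries its symbol alone, the older symbol without the final 1 included. No measured response was used in that choice of probe set, while the genes themselves were chosen with earlier results of these data known. A probe set was found for 35 of the 38 genes, of 14218 genes with such a probe set on the array. For 34 of them it lay among the 22000 brightest probe sets that were tested, namely 19 cytosolic enzymes, 12 mitochondrial enzymes and all 3 scaffold proteins. Lars2 and Pars2 had no such probe set, the Mars2 probe set is listed with several gene entries, and Nars2, with a mean log2 level of 4.91, was below the tested range.

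RNA came from L6, a rat skeletal muscle cell line that had been differentiated into myotubes with 1% serum and held in serum-free medium for 8 hours before the experiment. Control plates received serum-free medium with no insulin and treated plates the same medium with 20 nM insulin, a dose chosen by the study to give a maximal effect. Both cultures were sampled at time 0, before insulin, and then every 20 min for 8 hours, and the 3 samples of each hour were pooled, so hour 8 stands for the last pool. The whole course was run on 3 separate days, which gave 53 arrays in 18 groups of 3. The exception is the insulin culture at hour 3, which has no array of repeat a here. The labels give the letters a, b and c without a day, and each letter is taken here as the repeat of 1 day. All repeats used 1 cell line, so the errors below describe repeats of that line in culture and not animals. Unless a block or 1 mean per repeat is named, the fit below has no term for the day. It counts the hourly pools of 1 day as independent arrays, so its p-values do not measure the spread between days. The fits with a block also count those pools as independent, and only the fit with 1 mean per repeat measures that spread.

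The labels call the cells myoblasts, and genes of both states were read. The myotube genes Myog, Myh3 and Acta1 had mean log2 levels of 12.37, 13.43 and 13.48, while the cycling genes Mki67 and Top2a were at 9.96 and 9.03. Of the 9 tested myotube markers and the 3 tested cycling markers none passed between the cultures at hours 5 to 8 (limma), and with the repeat as a block 1 did, Tnni1 at -0.13. At those hours the summed level of the myotube markers ran from 22568 to 47703 on control arrays and from 20675 to 46796 on insulin arrays. For the cycling markers the ranges were 1254 to 3138 and 1475 to 3214. The 3 fibroblast markers summed to between 874 and 2213 on control arrays and between 744 and 1501 on insulin arrays. At time 0, before insulin, their sums ran from 669 to 1693 in the control culture and from 543 to 1261 in the insulin culture. At hours 5 to 8 Pdgfra was lower, at -0.32 ± 0.09 (SE, log2, limma adjusted p = 0.0158), with all 3 lower when the repeat entered as a block. The 3 tested macrophage markers at hours 5 to 8 summed to between 296 and 360 on control arrays and between 223 and 326 on insulin arrays. Over hours 1 to 8 Cd68 was higher by 0.14 ± 0.04 (limma, adjusted p = 0.0377). Another of the 3 lay below 0, at -0.11 over hours 1 to 8 and -0.25 over hours 5 to 8, taking 1 mean per repeat. The endothelial and adipocyte markers Pecam1, Kdr, Adipoq, Plin1 and Fabp4 were at mean levels of 4.93 or less and were not tested. In RNA of a whole culture, a change in the share of a cell type and a change of RNA per cell cannot be told apart, and the part of these markers in the results below was not tested.

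The arrays of repeat b stood apart. Across the 22000 tested probe sets, its insulin-minus-control difference at time 0, before insulin, correlated with its difference over hours 1 to 5 at r = 0.77, and the same r was 0.03 in repeat a and 0.15 in repeat c. Against hours 6 to 8 the r of time 0 was 0.09 in repeat a, -0.25 in repeat b and -0.285 in repeat c. Among the genes described here, repeat b differed at time 0 by -0.83 in Iars1, -0.71 in Vars2, -0.61 in Vars1, 0.52 in Rars2 and 0.50 in Fars2. The calls were therefore also made with the early b arrays left out, that is 12 arrays of repeat b from time 0 to hour 5. No probe set, in these families or elsewhere, passed at time 0 when the 3 repeats were fitted together (limma, 0% of 22000), and at an unadjusted p under 0.05 0 of the 34 genes described here and 206 probe sets in all did.

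The promoter sequences of 6 cytosolic enzymes hold the core of the C/EBP-ATF response element, the sequence to which ATF4 binds with its partners. Of these, 5 are shown, picked because the same enzymes carry larger late differences below. Being picked by the response, they cannot test a link between the motif and the response. In the fit with no term for the day, Iars1, which is shown, did not pass late. Nars1, which holds the core and is not shown, had a smaller late difference that passed in that fit. The letters searched were TGATGNAA on either strand of the window from 250 bases before to 50 bases after the RefSeq start of each gene (GRCr8), and capitals mark the match, written 5′ to 3′ in the direction of the gene. The motif was chosen after the differences had been seen.
Cars1 (chr1:208225334-208225363, minus strand): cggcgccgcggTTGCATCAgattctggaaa
Iars1 (chr17:15193658-15193687, minus strand): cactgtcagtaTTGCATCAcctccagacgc
Mars1 (chr7:65023752-65023781, minus strand): gcccgttccggTTGCATCAgcgtgggctcc
Tars1 (chr2:62114811-62114840, minus strand): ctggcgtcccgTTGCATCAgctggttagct
Yars1 (chr5:146820190-146820212, plus strand): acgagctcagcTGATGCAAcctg

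In each of the 5 the match reads TGATGCAA or its reverse complement, and the first base of the match lies at 18 in Cars1, -24 in Iars1, -17 in Mars1, -27 in Tars1 and 39 in Yars1, counted from the annotated start. Nars1 is the other promoter with the core, at -14. Promoter windows were used for 16 cytosolic enzymes, all 16 mitochondrial enzymes and the 3 scaffold proteins. The core was found in 6 of 16 cytosolic windows, in 0 of 16 mitochondrial windows and in 0 of 3 scaffold windows, and in 3.81% of all 27456 rat promoter windows. The strict form TGATGCAA was in the same 6 and in 0.739% of all windows. The E-box CACGTG, the letters bound by Myc and its relatives, was in the windows of Farsb, Iars1, Tars1 and Vars1 and of the mitochondrial Ears2, and in 6.65% of all windows. The 2 motifs shared no base. A match in these windows is a description of the letters and not of a bound site.

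Cytosolic enzymes of the myotubes were higher with insulin in the later hours. At those hours no tested enzyme that serves mitochondria alone passed in the fit of all arrays without a block for the day. Gars1 and Kars1, which serve both compartments, are counted with the cytosolic enzymes. Over hours 5 to 8, 11 of 19 cytosolic enzymes were higher and 1, Qars1, was lower, while 0 of 12 mitochondrial enzymes passed in either direction; over all tested probe sets the shares were 4.01% higher and 5.31% lower (limma, adjusted p under 0.05). With the repeat as a block the mitochondrial Rars2 was called higher (0.25; adjusted p = 0.0014), and with repeat and hour as the block both Rars2 (0.0103) and Yars2 (0.21; 0.00992) were, beside 9.32% of all probe sets higher and 12.1% lower. The median insulin-minus-control difference, on the log2 scale used throughout, was 0.31 for the cytosolic enzymes, 0.08 for the mitochondrial enzymes and 0.41 for the scaffold proteins. At an unadjusted p under 0.05 the mitochondrial enzymes Rars2, Sars2, Tars2 and Yars2 passed, 4 of 12, with 15 of 19 cytosolic enzymes. Taken relative to the difference at time 0, where each culture has 3 arrays, 1 cytosolic enzyme, Tars1, kept its call at hours 5 to 8 (0.0273% of probe sets called higher, 0.155% lower). Among the probe sets in the brightness range of the cytosolic enzymes 6.14% were called higher and 7.16% lower, and in the range of the mitochondrial enzymes 4.42% and 6.17%.

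**Figure D1:**
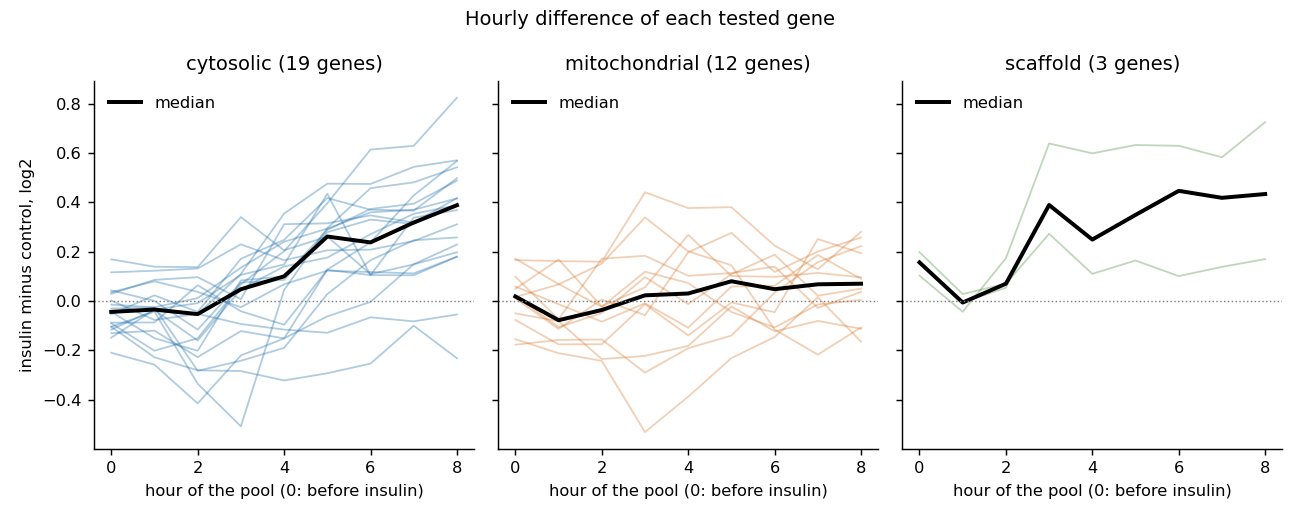
Insulin-minus-control difference (log2, vertical axis) of each tested gene at time 0 and at the 8 hourly pools (horizontal axis), 1 thin line a gene, with the median of each class in black. The cytosolic median lies at -0.05 at hour 2 and at 0.39 at hour 8, while the mitochondrial median lies between -0.08 and 0.08 throughout.

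The largest late difference of a cytosolic enzyme was that of Yars1, which charges tyrosine. Its log2 level on the 12 control arrays of hours 5 to 8 was 9.77 at the lowest, 10.06 in the median and 10.35 at the highest, and on the 12 insulin arrays 10.31, 10.73 and 10.93. The insulin arrays lay above their control partners of the same day and hour in 12 of 12 pairs, although the lowest insulin array was below the highest control array. The difference was 0.62 ± 0.08 (SE), a fold of 1.53 (adjusted p = 1.77e-07). By repeat it was 0.73 (a), 0.76 (b) and 0.36 (c).

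Tars1, the threonine enzyme, had levels of 9.83, 10.02 and 10.17 on control arrays and of 10.23, 10.44 and 10.64 on insulin arrays (lowest, median and highest of 12 each). It was the 1 cytosolic enzyme whose late arrays did not overlap between the cultures, which was seen with insulin higher in 0.373% of all tested probe sets. The difference was 0.41 ± 0.05, a fold of 1.33 (adjusted p = 3.81e-08), and 0.40 (a), 0.59 (b) and 0.25 (c) by repeat. Tars1 was also the member with the earliest single-hour call, at hour 5 with 0.42 ± 0.09 (adjusted p = 0.0258; 0.118% of probe sets were called higher and 0.232% lower at that hour).

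Cars1, which charges cysteine, ran from 9.33 through a median of 9.60 to 9.80 on control arrays and from 9.61 through 10.25 to 10.34 on insulin arrays. The ranges overlapped, but all 12 pairs were higher with insulin. The difference was 0.52 ± 0.08, a fold of 1.43 (adjusted p = 1.65e-05), with 0.58 (a), 0.81 (b) and 0.15 (c) by repeat. Its 4 probe sets gave late differences of 0.52, 0.46, 0.48 and 0.20, from the brightest to the dimmest.

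Nars1, the asparagine enzyme, was at 10.75, 11.01 and 11.18 in control and 11.12, 11.40 and 11.52 in insulin. The difference was 0.36 ± 0.06 (adjusted p = 1.27e-05), with 12 of 12 pairs higher. Gars1, the glycine enzyme of both cytosol and mitochondria, was at 10.51, 10.82 and 10.94 in control and at 10.85, 11.14 and 11.31 in insulin. Its difference was 0.33 ± 0.05 (adjusted p = 1.14e-05), again with 12 of 12 pairs higher. For both enzymes the lowest insulin array was below the highest control array.

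Farsb, the beta subunit of the phenylalanine enzyme, was at 9.97, 10.14 and 10.35 in control and 10.17, 10.41 and 10.63 in insulin. The difference was 0.24 ± 0.06 (adjusted p = 0.00573), higher in 11 of 12 pairs. Farsa, which encodes the alpha subunit of the same enzyme, differed by 0.08 ± 0.07 and did not pass (adjusted p = 0.613). The other enzymes called higher at hours 5 to 8 were Mars1 (methionine) at 0.39, Aars1 (alanine) at 0.35, Vars1 (valine) at 0.34, Eprs1 (glutamate and proline) at 0.31 and Sars1 (serine) at 0.30. Their adjusted p-values lay between 0.00339 for Mars1 and 0.0487 for Eprs1, and of 12 pairs all were higher in Aars1, Mars1 and Sars1, 11 in Vars1 and 8 in Eprs1. In Eprs1 the repeats stood at 0.59 (a), 0.49 (b) and -0.15 (c), and the mean of its probe sets differed by 0.19, which did not pass (adjusted p = 0.17).

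The cytosolic enzymes that did not pass at these hours were Iars1, Wars1, Rars1, Lars1, Hars1, Farsa and Kars1. Iars1, the isoleucine enzyme, had a difference of 0.44 with an SE of 0.20 (adjusted p = 0.183): by repeat it was 0.80 (a), 0.71 (b) and -0.17 (c). Wars1, the tryptophan enzyme, had a similar split, with 0.45, 0.28 and -0.20. Iars1, Lars1 and Rars1 passed when the repeat, that is the day, entered as a block (adjusted p = 0.0386, 0.0177 and 0.00517), which took the count to 14 of 19 against 9.32% of all probe sets called higher and 12.5% lower in that fit. With 1 mean per repeat Iars1, Lars1 and Rars1 did not pass (limma, adjusted p = 0.239, 0.550 and 0.306).

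Qars1, the glutamine enzyme, went the other way. Its level over hours 5 to 8 was 10.49, 10.59 and 10.74 on control arrays and 10.18, 10.37 and 10.61 on insulin arrays. The difference was -0.22 ± 0.06 (adjusted p = 0.00893), lower in 11 of 12 pairs and below 0 in all 3 repeats, with -0.10, -0.18 and -0.37. Its call was lost with the early b arrays left out. A supplementary annotation of the study pairs the same probe set with a second, similar locus, and from these arrays the transcripts of the 2 loci cannot be told apart.

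**Figure D2:**
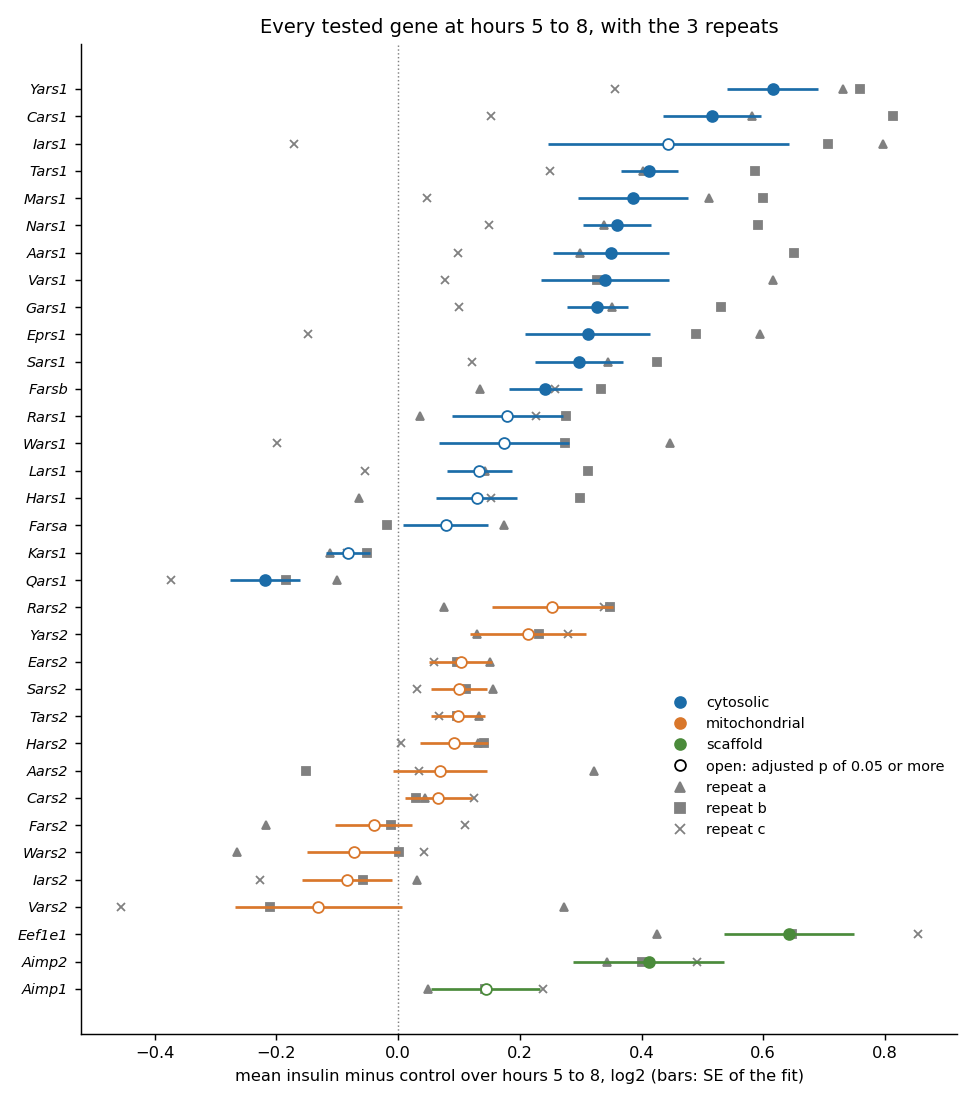
Mean insulin-minus-control difference over hours 5 to 8 (log2, horizontal axis) of the 34 tested genes, with the SE of the fit as bars, filled where the adjusted p is under 0.05, and the value of each of the 3 repeats in grey. Among the cytosolic enzymes 17 of 19 lie above 0, and repeat c, the grey crosses, has the smallest value of the 3 in 14 of the 19.

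The late medians were also taken within each repeat, without a test of how the repeats differ. At hours 5 to 8 the median of the cytosolic enzymes was 0.34 (a), 0.43 (b) and 0.10 (c), and that of the mitochondrial enzymes was 0.13, 0.06 and 0.05. The gap between the medians was therefore 0.21, 0.36 and 0.05. Of the 19 cytosolic enzymes 11 were above 0 in all 3 repeats, and 2, Kars1 and Qars1, were below 0 in all 3. Of the 12 mitochondrial enzymes 7 were above 0 in all 3 repeats and 0 were below 0 in all 3, so agreement of sign was not particular to the cytosolic class. Leaving out repeat b lowered the count of cytosolic enzymes called higher from 11 to 4, namely Gars1, Nars1, Tars1 and Yars1, and without repeat c it was 12. Without repeat a the calls of Eprs1, Mars1, Sars1 and Vars1 were lost, and without repeat c those of Farsb, Qars1 and Aimp2. The fit with 1 mean per repeat took the mean insulin-minus-control difference of each repeat, which leaves 3 values in all. There Yars1 (limma, adjusted p = 0.0149), Tars1 (0.0436) and the scaffold genes Eef1e1 (0.0125) and Aimp2 (0.0223) passed, beside 1.25% of all probe sets called higher and 1.7% lower.

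Of the scaffold proteins Eef1e1 and Aimp2 were higher late. Eef1e1, also called p18, was at 9.47, 9.72 and 9.92 on control arrays and at 10.03, 10.43 and 10.59 on insulin arrays, with no overlap between the cultures. Its difference of 0.64 ± 0.11, a fold of 1.56 (adjusted p = 4.51e-05), was within its SE of that of Yars1, and it was 0.43 (a), 0.65 (b) and 0.85 (c) by repeat. Aimp2, the core scaffold of the complex, was at 10.02, 10.38 and 10.66 in control and 10.39, 10.84 and 11.02 in insulin. The difference was 0.41 ± 0.12 (adjusted p = 0.0264), higher in 12 of 12 pairs, and its call was lost with the early b arrays left out, where the difference was 0.41 (adjusted p = 0.106). Aimp1 differed by 0.14 ± 0.09 (adjusted p = 0.409; 0.00613 with the repeat as a block and 0.431 with 1 mean per repeat). Repeat c had the largest late value of the 3 repeats in each of the 3 scaffold genes.

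Subsets of the cytosolic enzymes are set here against the 4.01% of all probe sets called higher and the 5.31% called lower at hours 5 to 8, with a median that includes members not called. Among the 7 enzymes that belong to the complex 2 were higher late and 1 lower (median 0.18), and among the 12 outside it 9 were higher and 0 lower (median 0.33). The counts called higher were 5 of the 7 and 9 of the 12 with the repeat as a block, beside 9.32% of all probe sets higher and 12.5% lower in that fit. Among the 13 cytosolic enzymes known as ATF4 targets 10 were higher and 0 lower (median 0.35), and among the other 6, 1 was higher and 1 lower (median 0.10). The 6 enzymes with the response element core in the promoter had late differences from 0.36 to 0.62, with 5 called higher, and the 10 with a promoter window without it from -0.22 to 0.34, with 4 higher and 1 lower. Across all tested genes with a promoter window, 10.9% of the 193 with the core and 4.67% of the 9457 without it were called higher at those hours, and 6.74% and 6.53% lower. The 193 include the 6 enzymes themselves, with the 5 called higher, so this share is not separate from theirs. Membership of these subsets was known, together with earlier results, when they were drawn, so the counts stand as descriptions.

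For 13 enzymes the cytosolic form and the mitochondrial partner for the same amino acid were both tested, and their difference was formed within each array. This comparison was added after the data had been seen, with p-values adjusted over all tested probe sets. At hours 5 to 8 the cytosolic form lay above the partner in 12 of 13 pairs, and 6 passed the test. Mean log2 levels ran from 6.055 to 8.729 for the tested mitochondrial enzymes and from 8.131 to 11.18 for the cytosolic ones. The part of this lower brightness in the gaps was not tested. The gap was 0.31 ± 0.05 for Tars1 over Tars2 (adjusted p = 1.64e-05), 0.28 ± 0.05 for Farsb over Fars2, 0.45 ± 0.10 for Cars1 over Cars2, 0.40 ± 0.09 for Yars1 over Yars2, 0.47 ± 0.10 for Vars1 over Vars2 and 0.53 ± 0.15 for Iars1 over Iars2 (adjusted p = 0.0187). The late differences of Vars2 and Iars2 themselves were -0.13 and -0.08, and neither passed (adjusted p = 0.685 and 0.606). The exception was arginine, where the cytosolic Rars1 lay below Rars2, with a gap of -0.07 ± 0.04 (adjusted p = 0.243). With the repeat as a block 8 pairs passed, with the early b arrays left out again 6, and without all of repeat b 2. At time 0 the cytosolic form was the higher in 3 of 13 pairs and 0 passed, with 0 of 13 also for the change from early to late hours (limma; 4 at an unadjusted p under 0.05). With the repeat as a block that change passed in 3 pairs, those of Cars1, Vars1 and Yars1.

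**Figure D3:**
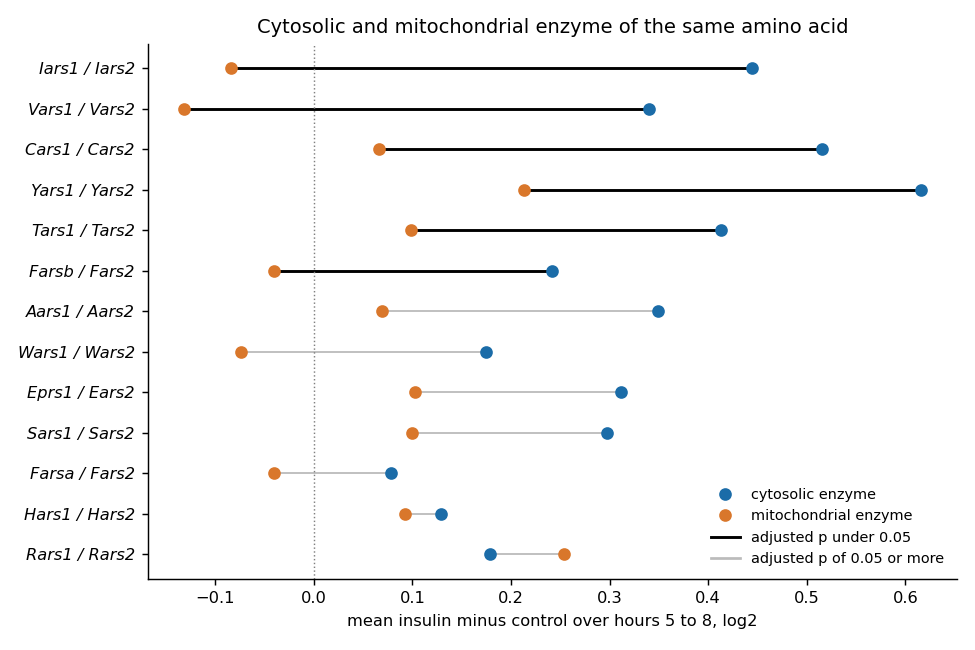
Mean insulin-minus-control difference over hours 5 to 8 (log2, horizontal axis) of the cytosolic enzyme (blue) and the mitochondrial enzyme (orange) for the same amino acid, 1 pair a row, joined by a dark line where the adjusted p of their gap is under 0.05. The blue point lies to the right in 12 of 13 rows; Farsa and Farsb share the partner Fars2.

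The mitochondrial enzymes were read over the whole course, where the test has the most arrays. Over hours 1 to 8, 2 of 12 were higher and 0 lower, with a median of 0.03, while 8 of 19 cytosolic enzymes were higher and 2 lower, with a median of 0.17; the shares of all probe sets were 5.51% higher and 6.61% lower. Rars2, the mitochondrial arginine enzyme, was at 7.56, 7.96 and 8.18 on 24 control arrays and at 7.69, 8.28 and 8.52 on 23 insulin arrays. Its difference was 0.27 ± 0.07 (adjusted p = 0.00915), with 20 of 23 pairs higher, but at time 0 it was already 0.52 in repeat b and its call was lost with the early b arrays left out. At hours 5 to 8 Rars2 differed by 0.25 (adjusted p = 0.11), and it passed there with the repeat as a block and without repeat a (0.00376), but not without repeat b (0.518) or c (0.464) or with 1 mean per repeat (0.195). Ears2, the mitochondrial glutamate enzyme, was at 5.73, 5.98 and 6.22 in control and 5.91, 6.11 and 6.36 in insulin, with a difference of 0.11 ± 0.04 (adjusted p = 0.0466). It also passed with the early b arrays left out, with 0.16 (adjusted p = 0.036), while the full set of probe sets without a filter on brightness lost the call. Leaving out any 1 of the repeats lost it too, with adjusted p-values from 0.125 to 0.231.

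Iars2 and Vars2 lay below 0 over hours 1 to 8. Iars2 was at 8.55, 8.81 and 9.02 in control and 8.43, 8.60 and 9.02 in insulin, and the difference of -0.13 ± 0.05 did not pass (adjusted p = 0.101; 0.00392 with the repeat as a block). Vars2 was at 6.16, 6.72 and 7.08 in control and 5.98, 6.41 and 7.21 in insulin, and its difference was -0.24 ± 0.10 (adjusted p = 0.116; 0.0212 with the repeat as a block). The remaining 8 mitochondrial enzymes, Aars2, Cars2, Fars2, Hars2, Sars2, Tars2, Wars2 and Yars2, had differences between -0.06 and 0.11 over these hours.

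Over the same hours the cytosolic enzymes called higher were Tars1, Nars1, Yars1, Cars1, Gars1, Farsb, Aars1 and Rars1, with differences from 0.17 to 0.31. Qars1 was lower, at -0.25 ± 0.04 (adjusted p = 3.99e-05) and in 22 of 23 pairs, and so was Kars1, the lysine enzyme of both compartments, at -0.08 ± 0.03 (adjusted p = 0.0277). Eef1e1 was higher by 0.49 ± 0.08 (adjusted p = 1.67e-05) and Aimp2 by 0.29 ± 0.09 (adjusted p = 0.0255). With the early b arrays left out the calls of Aars1, Farsb, Kars1, Rars1 and Aimp2 were lost, and those of Tars1, Nars1, Yars1, Cars1, Gars1, Qars1 and Eef1e1 were kept, beside 1.75% of all probe sets called higher and 2.84% lower. With 1 mean per repeat, and also relative to time 0, no member passed over hours 1 to 8 (limma); relative to time 0, 4 cytosolic enzymes had an unadjusted p under 0.05. With the repeat as a block Eprs1, Lars1, Mars1 and Sars1 were called higher as well, beside 11.7% of all probe sets (15.1% lower).

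The course over time is given by the early and the late hours. No member passed for the mean of hours 1 and 2, nor did any tested probe set (limma, 0%); at an unadjusted p under 0.05 these were Qars1, Vars1 and Tars2, and 2082 probe sets in all. Qars1 passed at those hours with the repeat as a block, at -0.25 (adjusted p = 0.0392), beside 0.227% of all probe sets called higher and 1.23% lower. Between those hours and hours 5 to 8 the insulin-minus-control difference grew by 0.79 ± 0.13 in Yars1 (adjusted p = 0.000497), by 0.68 ± 0.18 in Vars1, by 0.56 ± 0.14 in Cars1, by 0.42 ± 0.08 in Tars1, by 0.38 ± 0.09 in Gars1 and by 0.37 ± 0.10 in Nars1, each of which passed, beside 0.927% of all probe sets called higher and 0.914% called lower. No mitochondrial enzyme passed this test, with Tars2 nearest to it at 0.27 ± 0.08 (adjusted p = 0.054; 0.261 with 1 mean per repeat; 0.0068 with the repeat as a block, where 6.22% of all probe sets were called higher and 5.74% lower). In Qars1 the difference was -0.25 at hours 1 and 2 and -0.22 at hours 5 to 8, a change of 0.03 ± 0.10 (adjusted p = 0.933). The 6 calls of growth were all lost without repeat b, where the changes were 0.22 to 0.66, and also with the early b arrays left out, where the changes were 0.31 to 0.74 and 4 probe sets in all were called higher. Yars1 was nearest to passing in the latter fit, at 0.74 (adjusted p = 0.0551). Without repeat a the calls of Cars1, Gars1 and Nars1 were lost, and without repeat c those of Nars1 and Vars1.

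Each culture was also set against its own time 0, where a call in 1 culture alone does not show that only that culture moved. From time 0 to hours 5 to 8 of the control culture, Yars1 fell by 0.43 ± 0.12 (adjusted p = 0.0214) and Eef1e1 by 0.58 ± 0.17 (adjusted p = 0.0315), beside 2.83% of all probe sets called lower and 3.64% higher. Another 16 cytosolic enzymes had values below 0 in the control culture without passing, and the class median was -0.22. In the insulin culture Tars1 rose by 0.30 ± 0.07 over its time 0 (adjusted p = 0.0257), the 1 member that passed there, with 0.514% of probe sets called higher and 0.941% lower, and the class median was 0.13. In Yars1 the insulin culture differed from its time 0 by 0.28 ± 0.12 (adjusted p = 0.36), and in Eef1e1 by -0.04 ± 0.17 (adjusted p = 0.99). The mitochondrial medians were 0.06 in the control and 0.03 in the insulin culture, and no mitochondrial enzyme passed in either, Yars2 being nearest in the control culture at -0.47 ± 0.15 (adjusted p = 0.0526). Time 0 has 3 arrays a culture. The calls of Yars1 and Eef1e1 were lost without repeat b (adjusted p = 0.535 and 0.406), without repeat c (0.213 and 0.421) and with the early b arrays left out (0.388 and 0.330), and that of Tars1 without any 1 of the repeats (0.136 to 0.284) and without the early b arrays (0.0999). The sign of each was kept in all of these.

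**Figure D4:**
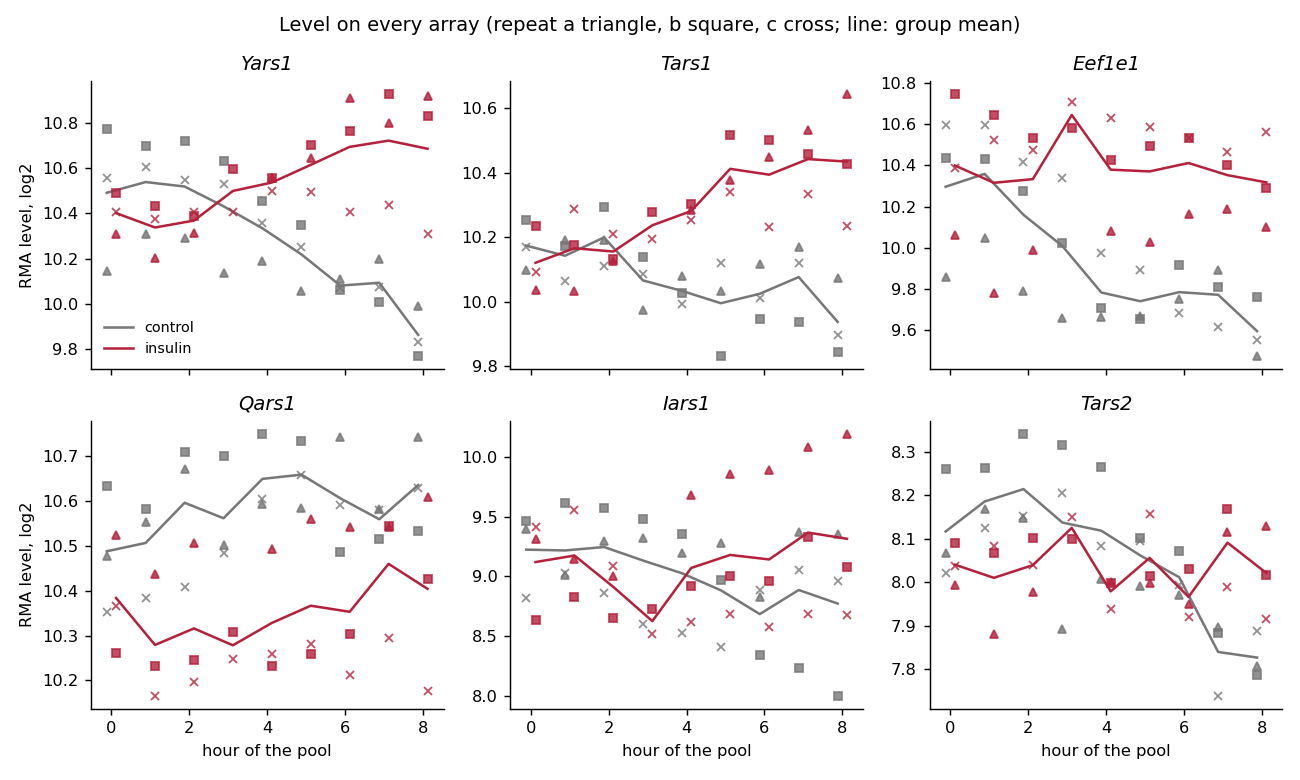
RMA level (log2, vertical axis, not starting at 0) of 6 genes on every array at time 0 and the 8 hourly pools (horizontal axis), control in grey and insulin in red, with the group mean as a line. In Yars1 and Eef1e1 the control mean of the late hours lies below that of time 0, in Qars1 the insulin arrays lie below the control arrays from hour 1 on in most pairs, in Iars1 repeat a and repeat c part, and in Tars2 the group means cross.

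By the last pool the 2 cultures of Yars1 stood at 9.99, 9.77 and 9.83 in control and at 10.92, 10.83 and 10.31 in insulin (repeats a, b and c). The difference at hour 8 was 0.82 ± 0.15 (adjusted p = 0.00217). Tars1 at hour 8 was at 10.07, 9.84 and 9.89 in control and at 10.64, 10.43 and 10.23 in insulin, with a difference of 0.50 ± 0.09 (adjusted p = 0.00308). These were the 2 members called at that hour, beside 0.186% of all probe sets called higher and 0.532% lower. Over the 8 hours together, a test of a difference at any hour passed in Tars1, Yars1, Eef1e1, Nars1, Cars1, Gars1 and Qars1 and in no mitochondrial enzyme, beside 2.42% of all probe sets (limma F test).

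Other genes of the charging system were read from lists of genes known for each role. In the amino acid response list, which holds ATF4 and genes it is known to drive, 16 of 28 tested genes were higher and 1 was lower at hours 5 to 8, with a median of 0.46, beside 4.01% of all probe sets called higher and 5.31% lower. Atf4 itself was higher by 0.51 ± 0.07 (adjusted p = 1.80e-06), and Myc, the E-box factor that drives growth genes, by 0.84 ± 0.16 (adjusted p = 0.000378). Mthfd2, which works in the folate cycle of mitochondria, was higher by 1.06 ± 0.08, the pseudokinase Trib3 by 0.96 ± 0.13, the cystine carrier Slc7a11 by 0.93 ± 0.20 and the glutathione-cleaving enzyme Chac1 by 0.64 ± 0.17. With the early b arrays left out, 13 of the 28 were higher, beside 3.04% of all probe sets (4.59% lower), and Chac1 no longer passed (adjusted p = 0.0606).

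Of 55 tested genes of transfer RNA modification and processing 15 were higher and 2 lower at hours 5 to 8 (median 0.11), against the same 4.01% and 5.31%. Trmt61a and Trmt6, the subunits of an adenosine methyltransferase of transfer RNA, differed by 0.75 ± 0.10 and 0.37 ± 0.10, the guanosine methyltransferase Mettl1 by 0.47 ± 0.07 and the pseudouridine synthase Pus3 by 0.34 ± 0.08, and each passed. Of 13 genes that deliver charged transfer RNA to the ribosome or complete the charging in mitochondria 1 was higher, Qrsl1 (a subunit of the mitochondrial amidotransferase) at 0.12 ± 0.04 (adjusted p = 0.0416), with a median of -0.03. Of 73 mitochondrial ribosomal proteins 6 were higher and 1 lower (median 0.04). The counts of the delivery genes and of the ribosomal proteins stand beside the same 4.01% higher and 5.31% lower, and were not tested against these shares. Among the ribosomal proteins Mrpl12 was at 0.37 ± 0.09, Mrps18b at 0.28 ± 0.06 and Mrps34 at 0.22 ± 0.06. Mrpl23, called lower over hours 1 to 8 at -0.21 ± 0.04, was at -0.09 ± 0.06 late and did not pass. With the early b arrays left out (3.04% of all probe sets higher) the late counts were 9 higher of the 55 modification genes, 0 of the 13 delivery genes and 4 of the 73 ribosomal proteins. They were 22, 2 and 14 with the repeat as a block (9.32% higher).

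For 15 of the genes the array carries more than 1 probe set. Of the 19 dimmer probe sets 17 had the sign of the brightest one at hours 5 to 8, and 0 were called in the opposite direction. The 2 with the other sign belong to Kars1, whose dimmer probe set was below the tested range, and to Wars1.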

How the data were processed

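The authors deposited values of Affymetrix rat GeneChip arrays on the log2 scale, made by RMA with quantile normalization (version not given in the sources used here); depth does not apply to arrays, and the number of arrays limits precision. Array medians lay between 6.30 and 6.37. Probe sets were named from the platform annotation, and the brightest with 1 symbol stood for a gene. A limma fit (3.58.1, R 4.3.3) with 1 mean for each of 18 groups and a variance trend was run on the 22000 brightest probe sets, with Benjamini-Hochberg adjustment over all of them, two-sided, at 0.05. It was tested on simulated arrays with independent noise. Those arrays had no deviation shared within a repeat, so the simulation does not cover that feature of the real arrays. Deviations of the 26 pairs of 1 repeat and hour correlated at 0.21 to 0.79. The repeats are taken as separate days, so the repeat was used to pair the cultures. The members and lists were chosen with earlier results of these data known. Named genes were all members, with array values for the 8 cytosolic or scaffold and 4 mitochondrial members of smallest p over hours 1 to 8 (Aimp2 added after its values were seen), plus Atf4, Myc and up to 4 called genes a list. Promoter windows came from RefSeq (GRCr8), and 1 of them was left out and is not reported here. The alternatives were the repeat, or repeat and hour, as a block, 1 mean per repeat, a repeat or the early b arrays left out, other filters, centring, no trend, the mean of a gene's probe sets and time 0 as the base.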

Additional observations from a re-analysis of the deposited data

Results flagged for a closer look

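The difference between the cultures changed from hours 1 and 2 to hours 5 to 8 in 6 cytosolic enzymes, tested as a change of the difference itself (limma). It was 0.56 in Cars1, 0.38 in Gars1, 0.37 in Nars1, 0.42 in Tars1, 0.68 in Vars1 and 0.79 in Yars1. With the repeat as a block 8 cytosolic enzymes passed. The calls were lost in all 6 without repeat b, where the changes were 0.22 to 0.66, in 3 without repeat a and in 2 without repeat c. With the early b arrays left out none passed, with changes of 0.31 to 0.74.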

How the results depend on the processing

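The repeats a, b and c are taken as 3 days of 1 cell line. The p-values of the main fit measure the spread of arrays within the 18 groups and count the hourly pools of 1 day as independent. Only the fit with 1 mean per repeat measures the spread between the 3 days. Of 1286 values of the 34 genes recomputed under the alternatives, 1097 kept their direction and side of the threshold, 130 lost a call, 59 gained 1 and 0 changed direction of a called value. Over hours 1 to 8 the cytosolic enzymes called higher, 8, became 0 with 1 mean per repeat, 5 with the early b arrays left out and 0 relative to time 0, and ran from 3 to 9 with 1 repeat left out. Those called lower, 2, became 0, 1 and 0 in the same order, 1 with arrays centred on the median, 1 with the mean of a gene's probe sets, and 1 to 2 with 1 repeat left out. The mitochondrial enzymes called higher, 2, became 1 with repeat and hour as a replicate block, 0 with 1 mean per repeat, 1 with the early b arrays left out, 1 with all probe sets, 1 with the 15000 brightest and 0 relative to time 0, and 0 to 1 with 1 repeat left out. At hours 5 to 8 the cytosolic enzymes called higher, 11, became 2 with 1 mean per repeat, 7 with the early b arrays left out, 1 relative to time 0 and 4 to 12 with 1 repeat left out, and the 1 called lower became 0 under each of these, with 0 to 1. The 0 mitochondrial enzymes called higher became 1 (Rars2) with the repeat as a replicate block, 2 (Rars2 and Yars2) with repeat and hour as the block and 0 to 1 with 1 repeat left out. For the change between early and late hours the 6 cytosolic enzymes became 0 with 1 mean per repeat, 0 with the early b arrays left out and 0 to 5 with 1 repeat left out. The 0 mitochondrial enzymes became 1 with either replicate block, 1 with the 15000 brightest and 1 with no trend, and stayed at 0 with 1 mean per repeat. The 6 pairs with the cytosolic enzyme above its partner ran from 2 to 6 with 1 repeat left out. The difference of the class medians at hours 5 to 8, 0.23, ran from 0.13 to 0.34 with 1 repeat left out. Except where fewer arrays were fitted, the cause of these changes was not tested.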
